A study of Gallus gallus with 54 samples.

Results

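The melanopsins and other non-visual opsins of the chick retina were followed through 4 genes, OPN3, OPN4, OPN4-1 and OPN5, which code for light-sensitive receptors outside the image-forming opsins. They were taken by symbol from the 24599 gene names in the deposited count table, and the transcript entry with the largest summed count stood for each gene. RNA from whole retina of male White Leghorn chicks had been sequenced in 54 libraries, which form 14 groups: 7 conditions, each at 4 h and 24 h. The study asked which retinal transcripts follow treatments that change the growth of the eye.

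In form-deprivation myopia (FDM), a translucent diffuser in front of the eye makes it grow too long. In 4 conditions birds wore the diffuser and had a drug injected into the vitreous: atropine or pirenzepine, which block muscarinic acetylcholine receptors, ADTN, which activates dopamine receptors, or TPMPA, which blocks GABA-C receptors. Recovery birds had worn diffusers for 3 days and were sampled 4 or 24 h after these came off. FDM birds wore the diffuser alone, and untreated birds were of matched age. There were 3 libraries of recovery at 4 h and 3 untreated at 24 h, and 4 in every other group. By the labels, birds were 7 days old in the 4 h groups and 8 days old in the 24 h groups, and all had been raised for 6 days with 12 h of light a day. In the 24 h drug groups the injection was repeated 4 h before collection. No group injected with vehicle alone was analysed here, so a drug and its injection cannot be told apart against FDM or untreated retina. Neither doses nor the hour of collection are stated in the labels. Nor do they state that libraries of a group are separate birds, so p-values measure the spread between samples, part of which may be technical.

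Opsins are receptors coupled to G proteins that carry a form of vitamin A aldehyde as their light-absorbing group. Melanopsins signal through Gq proteins and phospholipase C, and in mammals they let a small class of retinal ganglion cells sense light without rods and cones, which sets the body clock and the pupil. Birds keep a pair of melanopsin genes, here OPN4, the form that mammals also have (OPN4m), and OPN4-1, the form first found in Xenopus (OPN4x). In chick retina melanopsins are known from ganglion cells and horizontal cells. OPN5, or neuropsin, absorbs ultraviolet light and acts as a light receptor in the bird brain. OPN3, or encephalopsin, was first described in mammalian brain and is made in many tissues. In rat retina, melanopsin mRNA is known to depend on dopamine. That background is given without a direction and was not compared with the values below.

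All 4 genes passed the filter on low counts, with 15746 genes tested in all. Levels are given as CPM, counts scaled to a common library size after TMM normalisation. OPN4 (ENSGALG00000001934, galGal5 chromosome 6, 2328253 to 2350868, plus strand) was the most abundant, with 75.5 CPM in the lowest, 127 in the median and 208 in the highest of the 54 libraries. OPN4-1 (ENSGALG00000041662, chromosome 4, 37518259 to 37532248, plus strand) had 50.1, 91.6 and 155 CPM in its lowest, median and highest library.

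OPN3 (ENSGALG00000010762, chromosome 3, 35923245 to 35938587, plus strand) had 8.74, 13.3 and 21.6 CPM in its lowest, median and highest library. OPN5 (ENSGALG00000016725, chromosome 3, 110567075 to 110590328, plus strand) had 3.62, 9.28 and 14.4 CPM. Its raw counts ran from 36 to 348 per library, the fewest of the 4 genes. The spread between its libraries within groups was the widest of the 4. The median coefficient of variation of CPM over the groups was 20.04% for OPN5, against 14.14% for OPN4. Per kilobase of deposited entry length, mean levels over the 54 libraries were 65.6 CPM for OPN4, 54.4 for OPN4-1, 11.3 for OPN3 and 7.74 for OPN5. Among the other opsins tested, the retinal G protein-coupled receptor RGR had group means of 57.4 to 150 CPM per kilobase.

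Total counts ran from 7.4 to 24.8 M per library. Markers of the cells in which melanopsins are known were present in every group, with group means of 38.7 to 53.4 CPM for POU4F1 and 9.0 to 13.4 CPM for EOMES, ganglion cell factors, and 29.9 to 45.2 CPM for ONECUT1 and 9.12 to 13.7 CPM for LHX1, horizontal cell factors. Markers of tissue beside the neural retina varied widely: group means of RPE65, an enzyme of the pigment epithelium, were 104 to 316 CPM, and those of CDH5, the adhesion molecule of blood vessel walls, 0.163 to 21.9 CPM. ADTN library 4 at 24 h stood apart from the other 3 libraries of its group over all genes, with a chi-square per gene of 46.4 to 52.6 against them, while those 3 differed by 6.89 to 9.12 among themselves and no pair in another group exceeded 30.9. Its vessel score, a mean log2 CPM of blood vessel markers, was 0.858, against 3.45 to 4.96 in the other 3. The OPN4-1 changes with ADTN at 24 h, and that of OPN4 against untreated, are given with and without this library. Fits with a score as a term, fits of just the groups compared and the melanopsin ratio are given with it only. In a bulk sample, fewer cells of a type and less RNA per cell cannot be told apart.

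**Figure D1:**
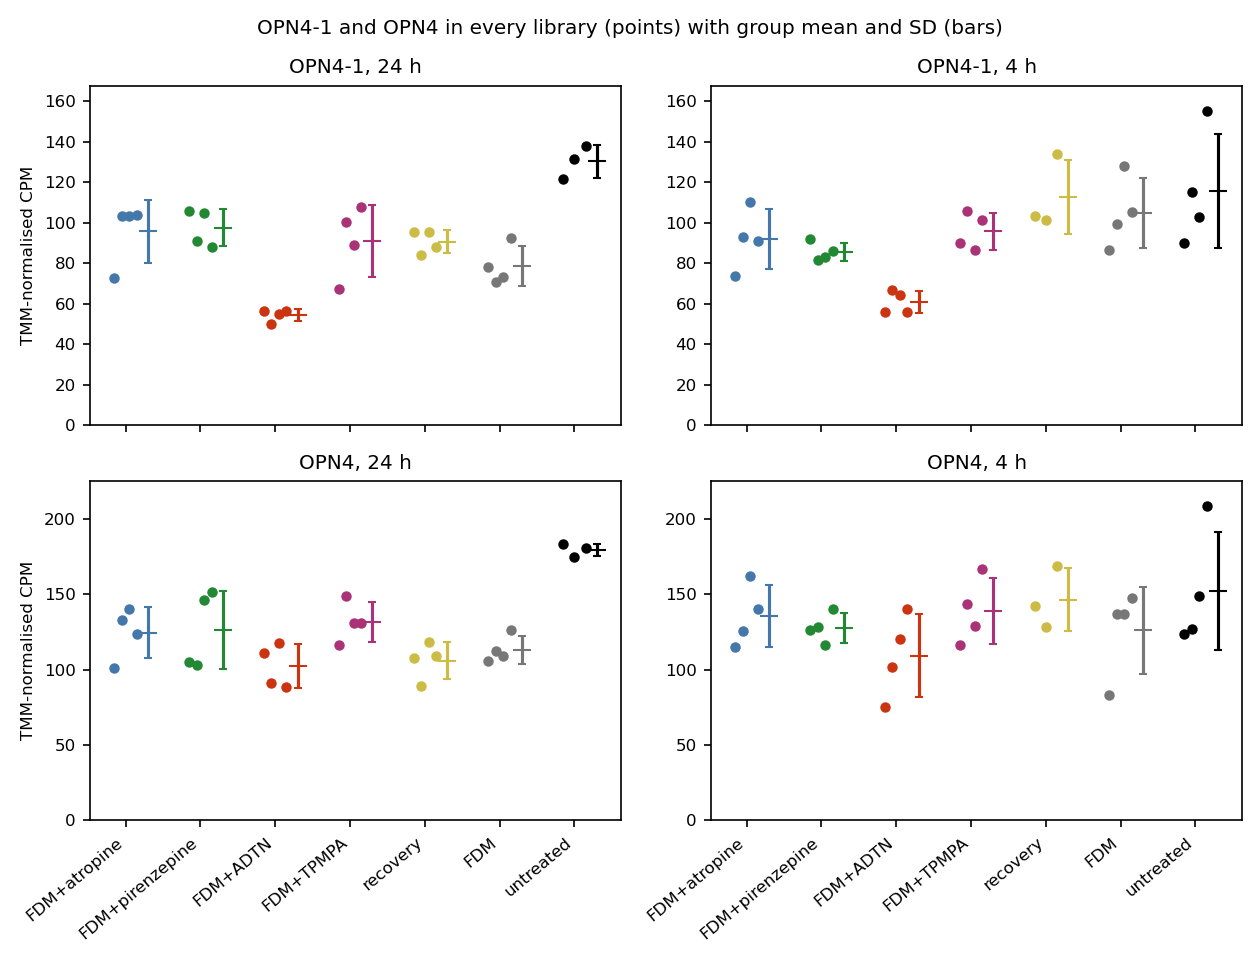
OPN4-1 (top) and OPN4 (bottom) in TMM-normalised CPM in every library at 24 h (left) and 4 h (right). Points are libraries, and the bar beside them gives the group mean and SD; the 8 ADTN libraries hold 50.1 to 66.8 CPM of OPN4-1, and the untreated libraries at 24 h hold 175 to 183 CPM of OPN4.

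OPN4-1 was lower with ADTN, the dopamine receptor agonist, than under the diffuser alone. At 4 h it had 56.1, 66.8, 64.4 and 56.1 CPM in ADTN libraries 1 to 4, against 86.7, 99.6, 128 and 105 CPM in FDM libraries 1 to 4. Every ADTN library lay below every FDM library. By edgeR's quasi-likelihood test the log2 change was -0.79 ± 0.14 (SE; 95% interval -1.06 to -0.51; adjusted p = 0.00141), a ratio of 0.579, where 0.756% of all genes passed the threshold of 0.05. OPN4 had 75.5, 102, 120 and 140 CPM with ADTN, against 83.0, 137, 137 and 148 CPM in FDM, and these libraries overlapped (log2 change -0.20 ± 0.16, adjusted p = 0.58). OPN3 (-0.25 ± 0.20) and OPN5 (-0.33 ± 0.24) did not pass the test either.

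At 24 h OPN4-1 had 56.6, 50.1, 54.7 and 56.4 CPM in ADTN libraries 1 to 4, against 78.1, 70.6, 73.2 and 92.6 CPM in FDM libraries 1 to 4. The groups again did not overlap, while the log2 change of -0.53 ± 0.14 missed the threshold (adjusted p = 0.191), in a comparison in which 0.0381% of genes were called. Without ADTN library 4 the change was -0.55 (adjusted p = 0.266). The change at 24 h minus that at 4 h was 0.26 ± 0.19 for OPN4-1 (adjusted p = 0.712). FDM held 78.6 ± 9.83 CPM at 24 h and 105 ± 17.4 CPM at 4 h, a log2 difference of -0.42 ± 0.14 between the times that missed the threshold (adjusted p = 0.499). With the vessel score as a term, OPN4-1 was called with ADTN at 24 h as well (log2 change -0.59, adjusted p = 0.0405). That score was 3.22 ± 1.71 with ADTN and 4.33 ± 0.64 in FDM. ADTN library 4, at 0.858, was in this fit, which was not repeated without it.

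Against untreated retina, OPN4-1 fell with ADTN at both times. At 4 h the 56.1 to 66.8 CPM with ADTN stood against 90.2, 115, 103 and 155 CPM in untreated libraries 1 to 4. The log2 change was -0.93 ± 0.14 (adjusted p = 0.000271), where 0.572% of genes were called. At 24 h the 50.1 to 56.6 CPM with ADTN stood against 122, 131 and 138 CPM in the 3 untreated libraries. There the log2 change was -1.26 ± 0.15 (95% interval -1.55 to -0.97; adjusted p = 5.23e-07), a ratio of 0.418, where 0.0826% of genes were called. Without ADTN library 4 it was -1.28 (adjusted p = 5.58e-06). In fits of just the groups compared, the call at 24 h held (adjusted p = 0.00453) and that at 4 h was lost (log2 change -0.93, adjusted p = 0.0602). No library of either pair overlapped, and these comparisons share the ADTN libraries with those against FDM.

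The other injected groups gave a comparison in which both sides had received an injection; these were added after the values were seen. OPN4-1 with ADTN at 24 h (54.4 ± 3 CPM, SD, n = 4) stood against 95.8 ± 15.5 CPM with atropine, 97.5 ± 9.14 with pirenzepine and 91.1 ± 17.8 with TPMPA. The log2 changes were -0.82 ± 0.14 against atropine (adjusted p = 0.00252), -0.84 ± 0.14 against pirenzepine (0.000418) and -0.75 ± 0.14 against TPMPA (0.00628), where 0.349%, 1.67% and 0.191% of genes were called. All 3 passed the test, and no ADTN library overlapped with those of the other drug. In fits of just the 2 groups compared, the calls against atropine (log2 change -0.81, adjusted p = 0.0722) and TPMPA (-0.75, adjusted p = 0.103) were lost, and that against pirenzepine held (adjusted p = 0.0246). The call against TPMPA was also lost without ADTN library 2 or TPMPA library 4 (adjusted p up to 0.0728). Without ADTN library 4 the changes were -0.83 against atropine (adjusted p = 0.00538), -0.86 against pirenzepine (0.00109) and -0.76 against TPMPA (0.00943).

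At 4 h OPN4-1 stood at 60.9 ± 5.58 CPM with ADTN, against 92.1 ± 14.9 with atropine, 85.7 ± 4.59 with pirenzepine and 95.9 ± 9.16 with TPMPA. It fell against pirenzepine (-0.49 ± 0.14, adjusted p = 0.0436) and TPMPA (-0.65 ± 0.14, adjusted p = 0.0193), and against atropine the change of -0.60 ± 0.14 missed the threshold (adjusted p = 0.118). The shares of all genes called were 2.17%, 0.114% and 0.0254% in that order. The call against pirenzepine was lost without any of ADTN libraries 1 to 3 or pirenzepine libraries 1 to 4 (adjusted p up to 0.156), and the call against TPMPA without ADTN libraries 1, 3 or 4 or TPMPA libraries 2 or 4 (up to 0.0974). In a fit of just the 2 groups compared, the call against TPMPA was lost as well (adjusted p = 0.111). Both were lost with the vessel score as a term, at -0.33 against pirenzepine (adjusted p = 0.414) and -0.52 against TPMPA (adjusted p = 0.204); that score was 4.49 ± 0.89 with ADTN, 1.65 ± 0.43 with pirenzepine and 2.18 ± 1.95 with TPMPA. Over all libraries, the 8 with ADTN were the 8 lowest of 54 for OPN4-1. The next value, 67.0 CPM in TPMPA library 1 at 24 h, was close to the highest ADTN value of 66.8. The share of all genes ordered in this way was not computed. Nor was the share without overlap in any pair of groups given here, so how unusual these separations are cannot be judged.

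Group means of the balance between the melanopsins were lowest with ADTN. The log2 ratio of OPN4-1 to OPN4 counts per base was -0.60 ± 0.39 with ADTN at 4 h and -0.69 ± 0.19 at 24 h (SD, n = 4 each), against -0.03 ± 0.27 and -0.32 ± 0.11 in FDM and -0.18 ± 0.17 and -0.25 ± 0.11 in untreated retina. Group means of the other conditions lay between -0.36 and -0.01. Single libraries overlapped: the ADTN libraries ran from -1.11 to -0.22 at 4 h and from -0.90 to -0.44 at 24 h, against -0.28 to 0.27 and -0.46 to -0.22 in FDM. The ratio was below 0 in 47 of 54 libraries, with a mean of -0.28. A second OPN4-1 entry over nearly the same span (1619 bases, against 1696 for the entry used) holds 93.4 to 97.7% of the count of the first. Whether the same reads were counted in both was not tested. With both entries summed and divided by the length of the entry used, the mean ratio was 0.69. Its sign thus rests on whether the entries are summed. The ADTN groups still had the lowest group means of the summed ratio (0.37 at 4 h and 0.28 at 24 h). The ratio is given as a description with no test.

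**Figure D2:**
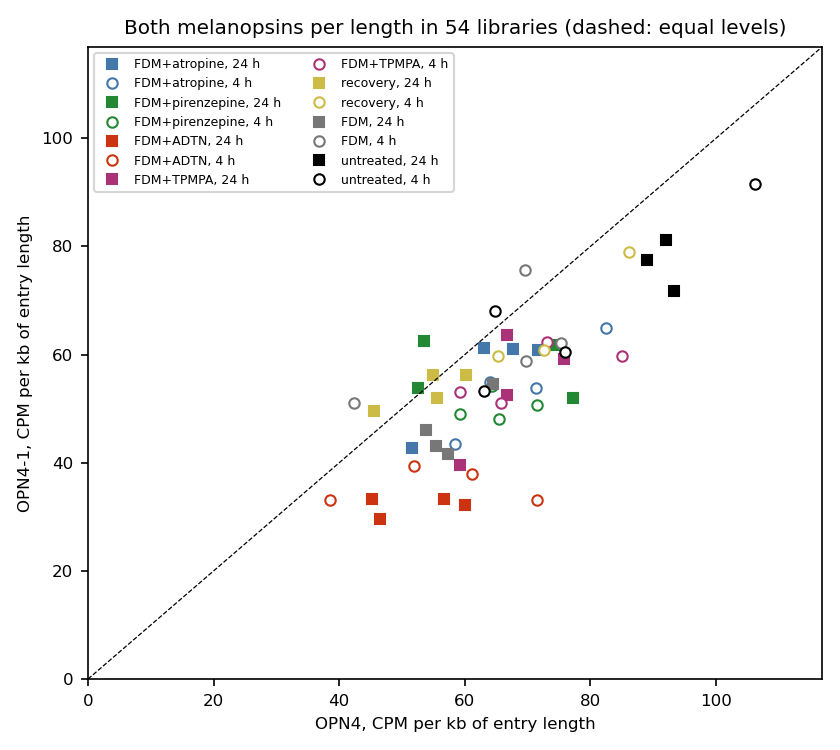
OPN4-1 (vertical axis) against OPN4 (horizontal axis) in CPM per kilobase of entry length, 1 point per library, with filled squares for 24 h and open circles for 4 h. The ADTN libraries (red) form the lowest row of points, below the dashed line of equal levels.

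Other readings differed between the ADTN and FDM groups at 4 h. The vessel score, the mean log2 CPM of 9 of the 11 blood vessel and pecten markers listed (PECAM1 and EMCN were not tested), was 4.49 ± 0.89 with ADTN and 2.26 ± 1.14 in FDM at 4 h. Summed over the 9 markers, levels ran from 417 to 660 CPM with ADTN and from 300 to 413 CPM in FDM; CDH5 was at 0 in 1 FDM library, and no marker was at 0 throughout either group. With the vessel score as a term, OPN4-1 kept its call at 4 h (log2 change -0.655, adjusted p = 0.0241). The clock score, the mean log2 CPM of ARNTL, CLOCK, NPAS2 and NFIL3 minus that of PER3, NR1D2, TEF and HLF, was -0.41 ± 0.19 with ADTN and -1.37 ± 0.47 in FDM. Group means of the other 4 h groups, untreated retina (-0.47 ± 0.04) among them, ran from -0.57 to -0.35. On this score FDM, and not ADTN, was thus the group that stood apart. With the clock score as a term the OPN4-1 change was -0.69 and the call was lost (adjusted p = 0.113). With both scores the change was -0.59 (adjusted p = 0.265).

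On the clock score the FDM libraries at 4 h were split: library 1 stood at -0.70 and libraries 2 to 4 at -1.72 to -1.44. The ADTN libraries ran from -0.60 to -0.15. Without FDM library 1 the change at 4 h was -0.87 (adjusted p = 0.000373), and the call held with any single library left out (adjusted p up to 0.024).

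Some scores of retinal cell types differed too. For the ganglion cell score, the mean log2 CPM of 12 markers, the values at 4 h were 6.36 ± 0.11 with ADTN, 6.22 ± 0.17 in FDM and 6.07 ± 0.13 in untreated retina, with no overlap between ADTN and untreated. At 24 h they were 6.33 ± 0.04, 6.34 ± 0.19 and 6.24 ± 0.05 in that order, with overlap. The horizontal cell score, from 7 markers, differed little at 4 h (4.79 ± 0.23 with ADTN, 4.69 ± 0.29 in FDM and 4.66 ± 0.20 untreated). At 4 h the photoreceptor score was 7.67 ± 0.11 with ADTN and 7.94 ± 0.18 in FDM, and the glia score 7.62 ± 0.19 with ADTN, 7.41 ± 0.11 in FDM and 7.21 ± 0.12 in untreated retina. The part of these cell type scores in the ADTN results was not tested, except for the photoreceptor score, with which as a term the OPN4-1 change from FDM at 4 h was -0.78 (adjusted p = 0.0139).

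**Figure D3:**
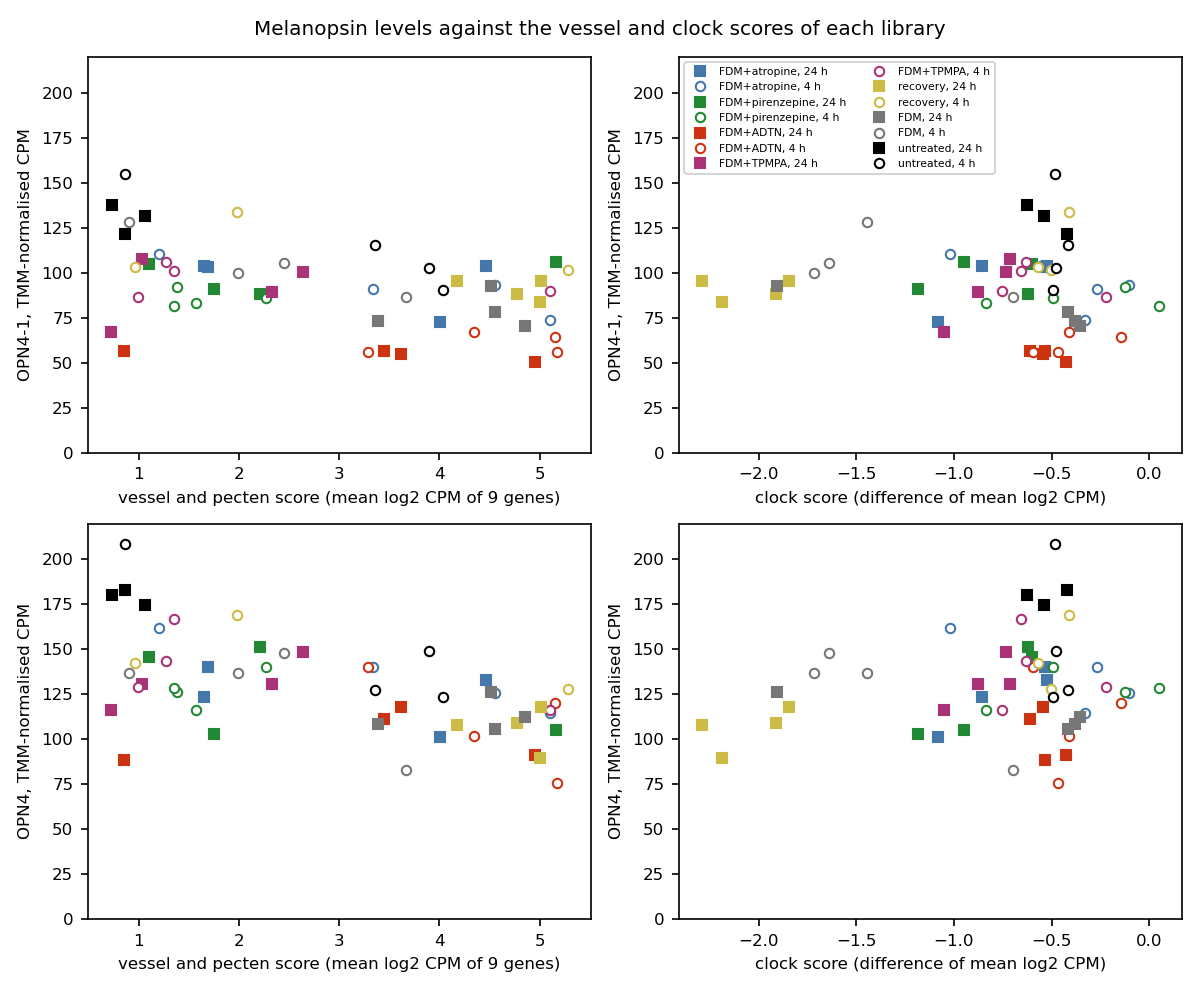
OPN4-1 (top) and OPN4 (bottom) in TMM-normalised CPM against the vessel score (left) and the clock score (right), 1 point per library, with filled squares for 24 h and open circles for 4 h. ADTN libraries (red) hold 50.1 to 66.8 CPM of OPN4-1 at vessel scores of 0.858 to 5.18, and the untreated libraries at 24 h (black squares) combine high melanopsin values with vessel scores of at most 1.06.

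Both melanopsins had their highest group mean in untreated retina at 24 h, and OPN4 fell in recovery against it. OPN4 had 108, 89.4, 118 and 109 CPM in recovery libraries 1 to 4, against 183, 175 and 180 CPM in untreated libraries 1 to 3. The groups did not overlap, and the log2 change was -0.76 ± 0.18 (95% interval -1.11 to -0.41; adjusted p = 0.0238), a ratio of 0.591, where 0.654% of genes were called. OPN4-1 had 95.3, 84.0, 95.4 and 88.0 CPM in recovery, against 122, 131 and 138 CPM untreated, with no overlap and a log2 change of -0.52 ± 0.14 that missed the threshold (adjusted p = 0.0692). The OPN4 call was lost without recovery library 1 or 2 or any of the 3 untreated libraries (adjusted p up to 0.112). OPN3 (0.29 ± 0.21) and OPN5 (-0.21 ± 0.26) did not pass the test in this comparison.

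This gap between untreated and other retina at 24 h ran through all conditions. The 24 libraries of the other 6 conditions held 88.7 to 152 CPM of OPN4 against 175 to 183 CPM untreated, and 50.1 to 108 CPM of OPN4-1 against 122 to 138 CPM untreated. None of the 24 reached the lowest untreated library for either gene. The share of all genes that separate in this way was not computed, so how unusual it is cannot be judged here. Most of these differences missed the threshold over all genes. The log2 changes of OPN4 ran from -0.81 to -0.45 over the 6 comparisons, which share the same 3 untreated libraries, and beside recovery it was called with ADTN alone (-0.81 ± 0.18, adjusted p = 0.039). That call was lost without any single ADTN or untreated library (adjusted p up to 0.225; -0.75 and 0.0787 without ADTN library 4) and with the vessel score as a term (log2 change -0.60, adjusted p = 0.281).

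Under the diffuser alone at 24 h, OPN4 had 105, 112, 109 and 127 CPM in FDM against 183, 175 and 180 CPM untreated (log2 change -0.66 ± 0.17, adjusted p = 0.511). OPN4-1 had 78.1, 70.6, 73.2 and 92.6 CPM in FDM against 122, 131 and 138 CPM untreated (-0.73 ± 0.14, adjusted p = 0.0952). In that comparison edgeR called 0% of genes, with 1136 genes at an unadjusted p under 0.05, 2 of them melanopsins; DESeq2 called 28 genes, among them 1 member, and limma voom 0. In a fit of just the FDM and untreated groups, both melanopsins passed (adjusted p = 0.0131 for OPN4 and 0.019 for OPN4-1), and with the vessel score as a term the changes were -0.37 for OPN4 and -0.53 for OPN4-1, with no call. Atropine, pirenzepine and TPMPA at 24 h against untreated gave 0%, 1.43% and 0% of genes called and 0 members, with both melanopsins at an unadjusted p under 0.05 in each; DESeq2 and limma voom called 0 members there too.

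The untreated libraries at 24 h also had low vessel scores. Their vessel score was 0.89 ± 0.16, against 4.74 ± 0.39 in recovery and 4.33 ± 0.64 in FDM, and the summed level of the 9 markers was 299 to 320 CPM, against 429 to 567 CPM in recovery and 366 to 542 CPM in FDM. CDH5 was at 0 in 1 untreated library and in no library of recovery or FDM. Similarly low vessel scores of 0.858, 0.723 and 1.04 were found in ADTN library 4 and TPMPA libraries 1 and 4 at 24 h. These held 88.7, 116 and 131 CPM of OPN4 and 56.4, 67.0 and 108 CPM of OPN4-1. The untreated libraries, at scores of 0.738 to 1.06, held 175 to 183 CPM and 122 to 138 CPM. Melanopsin levels at equal vessel scores were not tested. With the vessel score as a term, the change of OPN4 in recovery was -0.43 and was not called (adjusted p = 0.489). The clock score was -2.06 ± 0.21 in recovery and -0.53 ± 0.10 in untreated retina, and with it as a term the call of OPN4 was also lost (log2 change -0.91, adjusted p = 0.112).

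At 4 h untreated retina had the highest group means, 152 ± 39.2 CPM for OPN4 and 116 ± 28.2 CPM for OPN4-1. Its library 4 held the highest value of all 54 libraries for both genes, 208 and 155 CPM. The vessel score of that library was 0.861, against 3.36 to 4.04 in untreated libraries 1 to 3. Medians were 138 CPM untreated and 142 CPM in recovery for OPN4, and 109 and 103 CPM for OPN4-1. At 4 h only OPN4-1 with ADTN lay below untreated retina without overlap. Recovery at 4 h overlapped with untreated retina for both melanopsins. OPN4 had 142, 128 and 169 CPM in recovery against 124, 127, 149 and 208 CPM untreated (log2 change -0.05 ± 0.18, adjusted p = 0.992), and OPN4-1 had 103, 101 and 134 CPM in recovery against 90.2, 115, 103 and 155 CPM untreated (-0.04 ± 0.14, adjusted p = 0.993). Here 0.0381% of genes were called. The difference between the 24 h and the 4 h change of recovery was -0.71 ± 0.25 for OPN4 (unadjusted p = 0.00651, adjusted p = 0.43) and -0.49 ± 0.20 for OPN4-1 (adjusted p = 0.596), so a change of the effect with time was not shown.

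OPN5 was the member that fell with pirenzepine. At 4 h it had 3.91, 4.75, 6.94 and 7.00 CPM with pirenzepine, against 14.2, 9.23, 11.4 and 11.4 CPM in FDM. The 4 pirenzepine libraries lay below the 4 FDM libraries, and the log2 change was -1.05 ± 0.25 (95% interval -1.55 to -0.54; adjusted p = 0.0135), a ratio of 0.484, where 2.09% of genes were called. The call was lost without pirenzepine library 1 or 2 (adjusted p up to 0.0708), in a fit of just the 2 groups (log2 change -1.05, adjusted p = 0.0672) and with the clock score as a term (log2 change -0.92, adjusted p = 0.15), which was -0.35 ± 0.40 with pirenzepine and -1.37 ± 0.47 in FDM. Vessel scores were 1.65 ± 0.43 with pirenzepine and 2.26 ± 1.14 in FDM, and the call held with that score as a term.

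FDM at 4 h had the highest group mean of OPN5, 11.6 ± 2.06 CPM, and pirenzepine at 4 h the lowest, 5.65 ± 1.56 CPM (SD, n = 4 each). Untreated retina at 4 h lay between them, with 6.45, 10.1, 6.17 and 10.8 CPM. Pirenzepine against untreated gave a log2 change of -0.58 ± 0.25 (adjusted p = 0.297), with overlap, where 1.31% of genes were called. FDM against untreated gave 0.47 ± 0.24 (adjusted p = 0.737), where 0.171% were called. The fall was thus called against FDM and not against untreated retina.

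Atropine blocks the same class of receptor and left OPN5 at 14.4, 8.25, 7.37 and 9.44 CPM at 4 h (log2 change from FDM -0.23 ± 0.24, adjusted p = 0.816), where 1.17% of genes were called. Set against each other in a comparison added after the values were seen, pirenzepine minus atropine was -0.82 ± 0.25 for OPN5 (95% interval -1.32 to -0.32; unadjusted p = 0.00197, adjusted p = 0.454), with no overlap. In that comparison edgeR called 0% of genes (1208 at an unadjusted p under 0.05), DESeq2 5 genes and limma voom 0; at 24 h 0.197% were called and OPN5 differed by -0.17 ± 0.24 (adjusted p = 0.846). At 24 h OPN5 had 8.70, 12.6, 10.3 and 7.86 CPM with pirenzepine, against 7.44, 8.52, 9.54 and 10.5 CPM in FDM, with overlap (0.13 ± 0.24, adjusted p = 0.912), where 1.63% of genes were called. The difference of the 24 h and 4 h changes was 1.18 ± 0.35 (unadjusted p = 0.00149, adjusted p = 0.603). Pirenzepine at 24 h lay above pirenzepine at 4 h without overlap (log2 change 0.81 ± 0.25, adjusted p = 0.109, where 0.229% of genes were called).

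**Figure D4:**
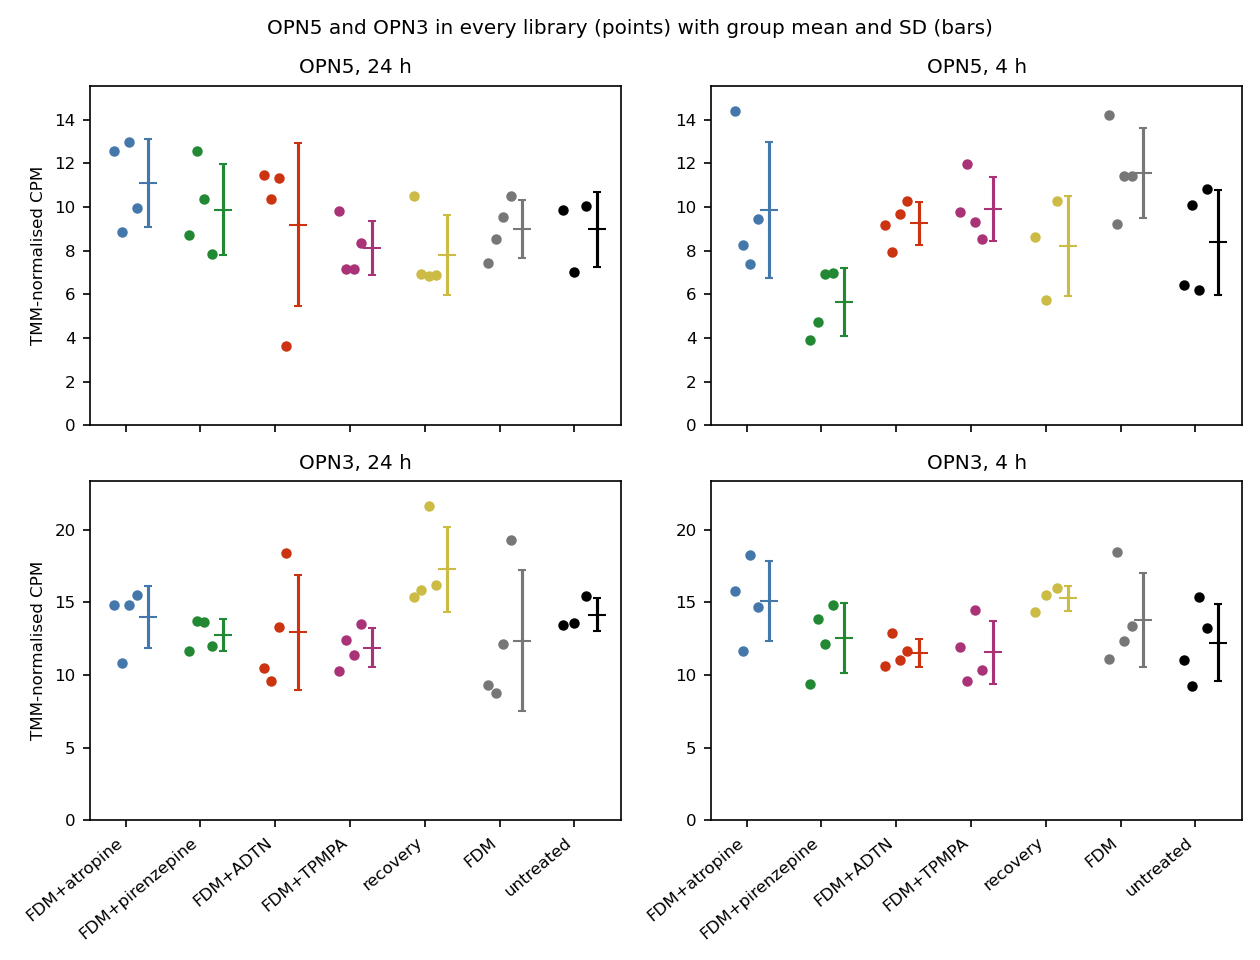
OPN5 (top) and OPN3 (bottom) in TMM-normalised CPM in every library at 24 h (left) and 4 h (right). Points are libraries and the bar beside them gives the group mean and SD; pirenzepine at 4 h holds 3.91 to 7.00 CPM of OPN5, against 9.23 to 14.2 CPM in FDM at 4 h.

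OPN3 passed the test in none of the comparisons. Its group means ran from 11.5 ± 0.988 CPM with ADTN at 4 h to 17.3 ± 2.92 CPM in recovery at 24 h. The change nearest to the threshold by unadjusted p among the main and secondary comparisons was recovery against FDM at 24 h, with 15.3, 15.9, 21.6 and 16.2 CPM in recovery against 9.31, 8.74, 12.1 and 19.3 CPM in FDM. It came to 0.48 ± 0.20 on the log2 scale (unadjusted p = 0.0184, adjusted p = 0.254), where 1.17% of genes were called. FDM library 4, at 19.3 CPM, overlapped with recovery, and without it the change was 0.77 (adjusted p = 0.0208). That library had a clock score of -1.91, while the other FDM libraries stood at -0.41 to -0.36 and recovery at -2.29 to -1.85, and with the clock score as a term the change over all libraries was 0.06 (adjusted p = 0.945). Within groups, over the 54 libraries, OPN3 correlated with the clock gene PER3 with r = 0.54 and a Spearman coefficient of 0.39. With PER3 these values were 0.43 and 0.38 for OPN4, 0.34 and 0.28 for OPN4-1, and -0.004 and 0.06 for OPN5.

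**Figure D5:**
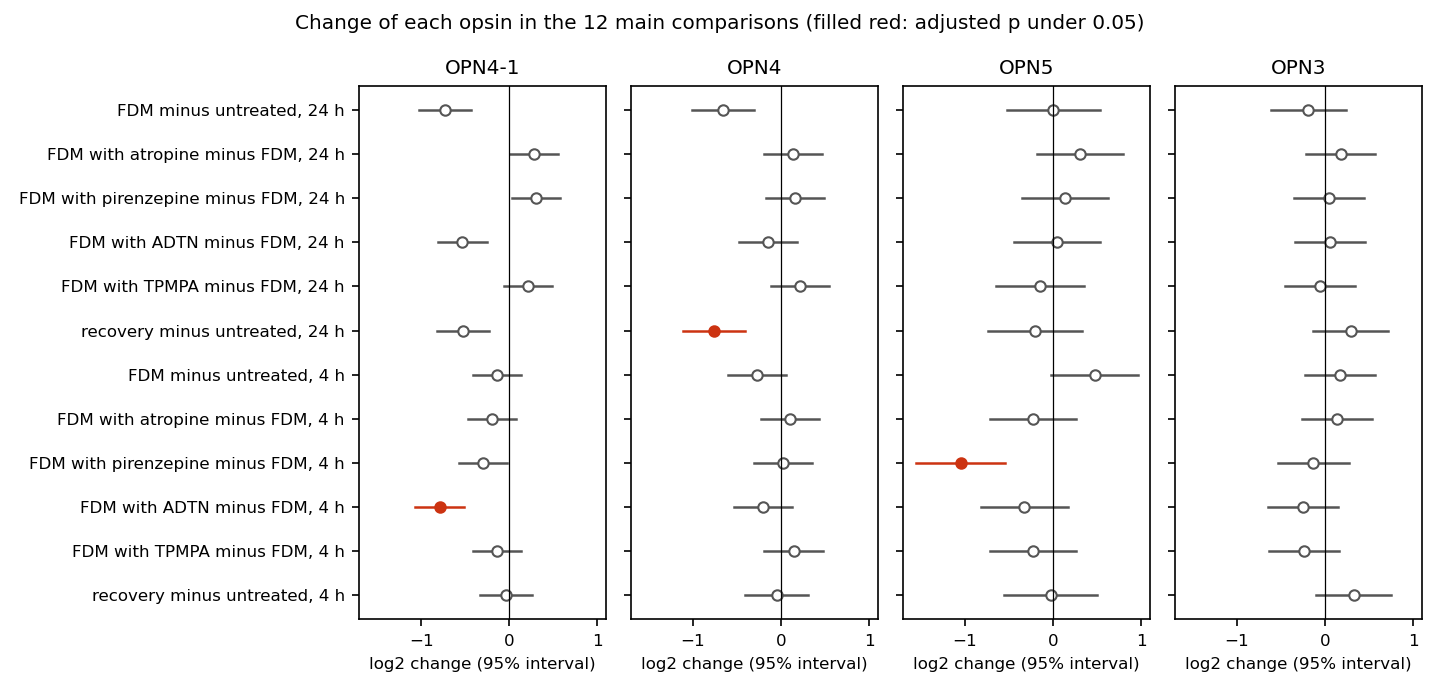
Log2 change of OPN4-1, OPN4, OPN5 and OPN3 in the 12 main comparisons, with 95% intervals from the quasi-likelihood fit; each row names the group on top first. Filled red points have an adjusted p under 0.05: OPN4-1 with ADTN at 4 h (-0.79), OPN4 in recovery at 24 h (-0.76) and OPN5 with pirenzepine at 4 h (-1.05).

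Over the 12 main comparisons, 3 of 48 tests of members were past the threshold, all of them falls. DESeq2 called 5 and limma voom 3, and 10 had an unadjusted p under 0.05. In single main comparisons edgeR called 0% to 2.09% of all 15746 genes, and 1097 to 2307 genes had an unadjusted p under 0.05. Beside those described, the shares of all genes called were 0.47% for TPMPA against FDM at 4 h, 0.0953% for atropine against FDM at 24 h and 0% for TPMPA against FDM at 24 h, with 0 members called in each and 0 by DESeq2 or limma voom. OPN4-1 stood slightly higher than FDM at 24 h with atropine (0.29 ± 0.14, adjusted p = 0.342) and pirenzepine (0.31 ± 0.14, adjusted p = 0.324), each at an unadjusted p under 0.05. With pirenzepine at 4 h OPN4-1 was -0.29 ± 0.14 from FDM (adjusted p = 0.311), and the difference between the pirenzepine changes at 24 h and 4 h was 0.60 ± 0.19 (unadjusted p = 0.00284, adjusted p = 0.609). Against FDM, no member differed with TPMPA by more than 0.24 on the log2 scale at either time.

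Among the 10 secondary comparisons, 3 of 40 tests passed, the 3 falls with ADTN against untreated described above, and DESeq2 and limma voom called 3 each. In single comparisons of this kind edgeR called 0% to 1.43% of all genes. The shares of genes called were 0.832% for atropine and 0.146% for TPMPA against untreated at 4 h, and 0.349% for recovery against FDM at 4 h, with 0 members called. Pirenzepine against untreated at 4 h came nearest for OPN4-1, with 92.0, 81.7, 83.1 and 85.9 CPM against 90.2, 115, 103 and 155 CPM (-0.43 ± 0.13, adjusted p = 0.101). It was called with the vessel score as a term (adjusted p = 0.0292) and without untreated library 1 (adjusted p = 0.0469), while without untreated library 4, the highest, the change was -0.25 (adjusted p = 0.367).

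No member passed the test between 24 h and 4 h within a condition: 0 of 28 tests passed with edgeR, DESeq2 or limma voom, and 4 had an unadjusted p under 0.05. Shares of genes called were 0.0127% in untreated retina, 0.845% in recovery and 0% in FDM, atropine, ADTN and TPMPA. Of all 15746 genes, 576 to 2661 had an unadjusted p under 0.05 in single comparisons of this kind. In recovery OPN4 (-0.47 ± 0.18, adjusted p = 0.283) and OPN4-1 (-0.32 ± 0.14, adjusted p = 0.432) lay lower at 24 h without overlap. The differences between 24 h and 4 h changes gave 0 of 24 member tests past the threshold by any of these tools and 6 at an unadjusted p under 0.05. They gave 0.0635% of genes called for recovery and 0% for FDM and the 4 drugs, with 951 to 2301 genes each at an unadjusted p under 0.05. In the 14 comparisons in which edgeR called no gene, the number with an unadjusted p under 0.05 was 576 to 2301, that called by DESeq2 was 2 to 55 and that by limma voom 0 to 8.

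A test for any difference among the 7 conditions asked the same of all groups at once. At 4 h OPN4-1 passed (adjusted p = 0.000148) and OPN5 came next (adjusted p = 0.0934), where 5.26% of genes were called. At 24 h OPN4-1 (adjusted p = 7.94e-06) and OPN4 (adjusted p = 0.0214) passed, where 5.49% were called, and 2 members were called without ADTN library 4 as well. OPN4-1 ranked 16th of 15746 genes by p at 24 h and 58th at 4 h. OPN3 passed at neither time (adjusted p = 0.457 at 4 h and 0.351 at 24 h).

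In the order of group means, OPN4-1 ran from 130 ± 8.09 CPM in untreated retina at 24 h to 54.4 ± 3 CPM with ADTN at 24 h, a span of 2.39-fold. Of its 13 steps between neighbours, 11 were smaller than the larger SD of the neighbours; the 2 wider ones set ADTN at 4 h below FDM at 24 h, and ADTN at 24 h below ADTN at 4 h. OPN4 ran from 179 ± 4.26 CPM in untreated retina at 24 h to 102 ± 14.4 CPM with ADTN at 24 h, and none of its 13 steps exceeded the larger SD. For OPN5 the single wider step lay between recovery at 24 h, 7.80 ± 1.82 CPM, and pirenzepine at 4 h. OPN3 had none.

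The melanopsins varied together and apart from the other members. Over the 54 libraries with group means subtracted, OPN4 and OPN4-1 correlated with r = 0.59 and a Spearman coefficient of 0.53, and over the 14 group means with r = 0.84 and a Spearman coefficient of 0.75. OPN4 and OPN3 had r = 0.24 within groups, and OPN5 had r between -0.17 and 0.05 with each of the other 3. Within groups the vessel score ran against OPN4 (r = -0.47) and OPN4-1 (r = -0.37). OPN4 also had r = -0.45 with the ganglion cell score, -0.38 with the horizontal cell score, -0.48 with the horizontal cell factor LHX1 and -0.43 with the small structural RNA score. These libraries share their processing, so the values are descriptions without a test.

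Among 10124 genes with a symbol and at least 2 CPM, those most like OPN4 within groups were RASA3, a Ras-inactivating protein, CHRNA7, a nicotinic receptor subunit, PLCB4, a phospholipase C, TRPC1, a cation channel, and MCU, the calcium uniporter of mitochondria (r = 0.77 to 0.69). Over the 14 group means they were GABRR3, a GABA receptor subunit, OPN4-1, GUCY1A3, MBOAT1 and FAM126A (r = 0.86 to 0.81). For OPN4-1 they were CALCRL, OPN4, GSDME, MLH3 and BNC1 within groups (r = 0.61 to 0.56). Over group means they were RAPGEF4, an exchange factor activated by cyclic AMP, KCNH8, a potassium channel, LRTM1, GSG1L and GUCY1A3 (r = 0.96 to 0.88).

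The genes most like OPN5 within groups were PSD3, ADAM23, GFRA1 and NTRK2, receptors for GDNF and BDNF, and SORCS3 (r = 0.80 to 0.75, Spearman coefficients 0.74 to 0.65). That search was not repeated without ADTN library 4 at 24 h, which stood apart from its group and held the lowest OPN5 value, 3.62 CPM. Over group means the genes most like OPN5 were CSMD1, RYR2, a calcium release channel, SCN1A, a sodium channel, MINDY4 and SLC44A5 (r = 0.87 to 0.85). Those most like OPN3 were TMEM231, NADK, HEATR1, SCFD1 and KHDRBS3 within groups (r = 0.65 to 0.62) and BLVRA, CABLES1, DYNLT3, RNF19A and MAP3K5 over group means (r = 0.83 to 0.81). GUCY1A3 was the only gene among the nearest 5 of more than 1 member. Each of these lists holds the highest r of 10124 genes searched, over as few as 14 points. How high r would run by chance in such a search was not tested.

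Other genes of the same pathways were read from lists in 29 comparisons. In single comparisons among these, edgeR called 0% to 2.09% of all 15746 genes, and 576 to 2661 genes had an unadjusted p under 0.05. Of the 12 other non-visual opsins listed, OPN5L1, OPN5L2, OPNVA, RGR and RRH were tested, and none was called in 29 comparisons (10 of 145 tests had an unadjusted p under 0.05; other tools were not run on the lists). OPN5L1, a relative of OPN5, had 3.11 ± 0.50 CPM with ADTN and 4.27 ± 1.02 CPM in FDM at 4 h (adjusted p = 0.33), and 2.81 ± 0.497 CPM with ADTN and 4.52 ± 1.53 CPM in FDM at 24 h (adjusted p = 0.366). For 11 genes of the melanopsin cascade, 1 of 319 tests passed and 21 had an unadjusted p under 0.05. The call was for the protein kinase PRKCZ, where 0.756% of all genes were called. It fell with ADTN at 4 h to 75.2 ± 18.2 CPM, against 112 ± 22.1 CPM in FDM (log2 change -0.58 ± 0.13, adjusted p = 0.0231). PLCB4, the phospholipase that melanopsin uses in mouse, had 321 ± 48.2 CPM with ADTN and 351 ± 23.5 CPM in FDM at 4 h (adjusted p = 0.519). The median log2 change of the cascade genes in that comparison was -0.11, against 0.00 over all genes.

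None of the 6 dopamine genes tested, DDC, SLC18A2 and the receptors DRD1, DRD2, DRD4 and DRD5, was called in 29 comparisons. An unadjusted p under 0.05 was found in 17 of 174 tests, to be read beside the all-gene numbers given above for these comparisons. Of the 8 dopamine genes listed, TH and SLC6A3 were not tested. The dopamine receptor genes were present in every group, with means of 177 to 237 CPM per kilobase for DRD4 and 36.4 to 44.5 for DRD1. Means were lower for DRD5 (18.9 to 27.5) and lowest for DRD2 (3.45 to 5.24). For 20 clock and melatonin genes, 35 of 580 tests in these comparisons passed, which share libraries and in which 0 to 2.09% of all genes were called. With ADTN at 4 h PER2 fell (-0.63 ± 0.15, adjusted p = 0.0277), PER3 fell (-1.59 ± 0.36, adjusted p = 0.0232) and TPH1, the hydroxylase that starts the route to serotonin and melatonin, rose (1.44 ± 0.28, adjusted p = 0.00824) against FDM. PER3 stood at 213 to 231 CPM in FDM libraries 2 to 4, 83.0 in FDM library 1, 90.1 to 115 in untreated retina and 48.3 to 98.9 with ADTN. TPH1 stood at 12.4 to 16.6, 39.1, 31.6 to 43.4 and 39.7 to 66.9 CPM in that order. FDM libraries 2 to 4 were thus apart from untreated retina too. In recovery at 24 h ARNTL and NFIL3, a clock activator and a clock-linked repressor, each fell by 1.5 on the log2 scale against untreated retina (adjusted p = 6.56e-06 and 7.86e-06), beside the fall of OPN4 there. With ADTN at 24 h the melatonin receptor MTNR1A fell to 2.22 ± 0.801 CPM, against 7.86 ± 2.49 CPM in untreated retina (log2 change -1.84 ± 0.33, adjusted p = 0.00583), beside the fall of OPN4-1. The part of these readings in the melanopsin results was not tested beyond the fits with the clock and vessel scores as terms.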

How the data were processed

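Total RNA of 54 retina libraries (RNA integrity above 7, directional kit, 75 cycles) was sequenced on a NextSeq 500, per the labels' protocols. Trimmomatic 0.36, HISAT2 2.1, HOMER, edgeR, limma and the build galGal5 are named in the submitters' processing notes; neither their roles nor the strand setting used in counting is stated there. The authors deposited raw counts for 38118 transcript entries, with lengths and coordinates (a unit other than counts). The entry with the largest summed count was kept per gene name.

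Counts were filtered with filterByExpr (minimum count 10, total 15), TMM-normalised and fitted with edgeR 4.0.16 in R 4.3.3 (robust quasi-likelihood, 14 group means, 54 libraries, depth 7.4 to 24.8 M). P-values are two-sided and adjusted by Benjamini-Hochberg over 15746 genes (threshold 0.05). An SE is the log2 change over the square root of F. DESeq2 1.42.0, limma 3.58.1 voom and covariates (scores use log2 CPM, prior count 2) were alternatives; the fit was tested on simulated data. Intervals cover the spread between samples only.

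The members and lists were chosen with earlier results of these data known. Named genes were every member, up to 4 called genes per list and comparison with the largest changes, and the 5 nearest by correlation; some are not printed, and OPN5L1, PLCB4 and the levels of dopamine receptors were named after their values were seen. Comparisons between injected groups, and the joint vessel and clock terms, were added after values were seen. Sequences were not used here, and a score of bipolar cell markers is not reported here. No libraries of a group agreed within sampling noise (smallest chi-square per gene 4.74 over 78 pairs), and ADTN library 4 at 24 h stood apart from its group (46.4 to 52.6).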

Additional observations from a re-analysis of the deposited data

Results flagged for a closer look

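In 48 groups of 4 libraries (4 genes, 12 groups), 5 held a library set apart from the other 3, with a gap to the nearest of them, relative to the group's range, above Dixon's critical value; chance alone gives about 1 in 20. OPN5 had 3.62 CPM in ADTN library 4 at 24 h, against 10.4 to 11.5 CPM in the other ADTN libraries; this library also stood apart over all genes, with a chi-square per gene of 46.4 to 52.6 against the other 3, and 6.89 to 9.12 among them. OPN5 had 10.5 CPM in recovery library 1 at 24 h and 6.86 to 6.95 CPM in the others. OPN4-1 had 72.5 CPM in atropine library 1 at 24 h and 103 to 104 CPM in the others. OPN3 had 10.8 CPM in atropine library 2 at 24 h and 14.8 to 15.5 CPM in the others. OPN3 had 21.6 CPM in recovery library 3 at 24 h and 15.3 to 16.2 CPM in the others. No library was flagged for more than 1 gene.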

How the results depend on the processing

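Among changes of members with an unadjusted p under 0.05, none turned its direction under the alternatives run. The direction of the other, weaker changes was not followed. Of 628 counts of called members under settings other than leaving out a library, 587 stayed within 1.5 times the count reported. Most comparisons had 0 members called, and a count of 0 that stayed 0 is among the 587. This share therefore does not measure how stable the calls were. OPN4-1 with ADTN against untreated at 24 h passed in each of the 14 alternatives. For each count that moved, the number of members called is given with the number reported after it; apart from settings that use fewer samples or genes, the cause was not tested.

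With the vessel score as a term, any difference at 24 h had 1 (2), ADTN against pirenzepine and against TPMPA at 4 h 0 (1), ADTN against FDM at 24 h 1 (0), ADTN against untreated at 24 h 1 (2), pirenzepine against untreated at 4 h 1 (0) and recovery against untreated at 24 h 0 (1). With vessel and clock scores as terms, any difference at 24 h had 1 (2), ADTN against pirenzepine, TPMPA and FDM at 4 h 0 (1), ADTN against untreated at 24 h 1 (2), pirenzepine against FDM at 4 h 0 (1), pirenzepine against untreated at 4 h 1 (0) and recovery against untreated at 24 h 0 (1). With the clock score alone, ADTN and pirenzepine against FDM at 4 h and recovery against untreated at 24 h had 0 (1). With the small structural RNA score, ADTN against pirenzepine at 4 h and recovery against untreated at 24 h had 0 (1). With total count as a term, or with no filter on low counts, ADTN against pirenzepine at 4 h had 0 (1) and ADTN against untreated at 24 h 1 (2). With limma voom, ADTN against pirenzepine at 4 h had 0 (1) and any difference at 4 h 2 (1). With DESeq2, not run for any difference, FDM against untreated at 24 h and ADTN against atropine at 4 h had 1 (0) and recovery against untreated at 24 h 2 (1). With only the groups compared, FDM against untreated at 24 h had 2 (0), recovery against untreated at 24 h 2 (1), ADTN against untreated at 24 h 1 (2), and ADTN against atropine and TPMPA at 24 h, ADTN against TPMPA and untreated at 4 h and pirenzepine against FDM at 4 h 0 (1).

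Same-numbered libraries did not pair at every number, with correlations of their deviations from -0.108 to 0.422 and 0 of 12 pairs of groups above 0.1 throughout. For library 1 at 4 h the correlations were 0.178 to 0.422 in the main comparisons, which share libraries. Other numbers at 4 h gave -0.108 to 0.155. Whether libraries of the same number share a batch was not tested. With the replicate number as a block, FDM against untreated at 24 h had 2 members called (0), ADTN against atropine at 4 h 1 (0), pirenzepine against untreated at 24 h 1 (0) and recovery against untreated at 24 h 2 (1).

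Leaving out 1 library at a time gave 0 to 1 members for ADTN against atropine, pirenzepine and TPMPA at 4 h, ADTN against TPMPA at 24 h, pirenzepine against FDM and untreated at 4 h, and recovery against FDM and untreated at 24 h. It gave 1 to 1 for ADTN against untreated at 24 h and 1 to 2 for any difference at 24 h. The mean melanopsin log2 ratio, -0.28, was 0.69 with the entries of a gene name summed and divided by the length of the entry used. Genes called moved more: 119 for ADTN against FDM at 4 h (2 to 343 over alternatives), 329 for pirenzepine against FDM at 4 h (101 to 507), 103 for recovery against untreated at 24 h (0 to 396), 13 for ADTN against untreated at 24 h (1 to 73) and 0 for FDM against untreated at 24 h (0 to 89). Depth limits OPN5 most, with as few as 36 counts in a library.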

Other observations

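A cone opsin, and ABCA4 and BCO2 from the retinoid handling list, moved in some comparisons. The cone opsin gave the 1 call in 58 tests of 2 visual opsins. The green cone pigment OPN1MSW had 81.3 ± 3.30 CPM in recovery and 150 ± 56.7 CPM in FDM at 24 h, a fall of 0.88 ± 0.22 on the log2 scale (edgeR, adjusted p = 0.0263). In the same comparison ABCA4, the transporter that clears retinaldehyde from photoreceptor discs, fell to 260 ± 24.1 CPM in recovery, against 399 ± 78.9 CPM in FDM (-0.62 ± 0.14, adjusted p = 0.0156).

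BCO2, an enzyme that cleaves carotenoids, rose with pirenzepine against FDM at 4 h (271 ± 15.7 against 212 ± 18.9 CPM, log2 change 0.35 ± 0.08, adjusted p = 0.00827) and at 24 h (272 ± 14.9 against 221 ± 27.1 CPM, 0.29 ± 0.08, adjusted p = 0.0367). It fell in recovery at 24 h, with 185 ± 4.23 CPM against 246 ± 16.0 CPM in untreated retina (-0.41 ± 0.09, adjusted p = 0.0105). With ABCA4, these were the 4 calls among 12 retinoid handling genes in 29 comparisons (348 tests, 39 at an unadjusted p under 0.05). Shares of all genes called were 2.09% and 1.63% for pirenzepine against FDM at 4 h and 24 h. In recovery at 24 h they were 0.654% against untreated and 1.17% against FDM. RPE65 varied between libraries of a group (104 ± 86.3 CPM with pirenzepine at 24 h), and whether pigment epithelium in a sample bears on these values was not tested.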
